A study of Mus musculus with 18 samples.

Results

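The endothelin and leukemia inhibitory factor (LIF) stress genes were followed in the retina and in the retinal pigment epithelium with choroid (RPE/choroid) of mice with altered Abca4, the photoreceptor flippase whose loss underlies Stargardt disease. The 10 genes were chosen by symbol from the deposited gene tables, and all 10 were found among 22558 genes. They are the ligands Edn2 and Lif, the receptors Ednrb, Lifr, Il6st and Osmr, the signal transducer Stat3, and the induced genes Socs3, Cebpd and Serpina3n. Their level in each single library is given because retinal knockout library 0 was known beforehand to hold the strongest stress signal.

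In the injured retina, endothelin 2 is made by stressed photoreceptors and acts on the endothelin B receptor of Müller glia, the supporting cells that span the retina. LIF is made by a subset of Müller glia and binds the LIF receptor together with gp130, the shared subunit that Il6st encodes. That receptor activates STAT3, which drives its own brake Socs3 and acute phase genes. The axis is known for protecting photoreceptors from light damage and inherited degeneration.

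Total RNA was sequenced from 18 libraries, 3 for each of 3 genotypes in each tissue, all at 30 days of age. The mice were wild type, Abca4-/- (knockout) or homozygous for an Abca4 allele with the substitutions L541P and A1038V (knock-in), and all had a mixed 129SV and C57BL/6 background. Nothing in the labels ties the 3 libraries of a genotype to different animals, so the p-values reflect spread between samples that may in part be technical. The tables number the libraries 0 to 2, and libraries are named here by genotype and that number.

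The libraries held 11553291 to 23579152 assigned fragments in retina and 14621635 to 30048059 in RPE/choroid. Abca4 stood at 73.9 to 81.8 FPKM (fragments scaled to gene length and library size) in knockout retina, below the 228 to 282 of wild type, and at 182 to 233 in knock-in retina, which overlapped wild type. Rod markers summed to between 18991 and 21028 FPKM (8 genes) in retina, and RPE markers to between 7028 and 11781 (10 genes) in RPE/choroid. Lens markers varied within and between the genotypes of retina. The sum of 15 genes ran from 53.5 to 1016 FPKM in wild type, 664 to 15439 in knockout and 519 to 7964 in knock-in. Rod markers in RPE/choroid summed to between 70.1 and 375 FPKM in 8 libraries and to 1962 in wild-type library 2. By sex-linked genes, knockout 0 and wild type 0 and 1 were male in retina and all other retinal libraries were female. The RPE/choroid libraries were male except knock-in 2. Fewer cells of a type and less RNA per cell cannot be told apart in such bulk tissue.

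The Socs3 promoter is shown because it was the only member promoter with a match to the STAT motif searched for. Socs3 is a feedback inhibitor that STAT3 induces. The palindrome TTCNNNGAA, the core that STAT dimers bind, was searched on both strands in the 250 bases before each start site in RefSeq promoters of build GRCm38.p6. It was present in 1 of the 10 windows of the 9 members with an entry, that of Socs3, and in 7.02% of all 32851 windows. The stretch below lies at chr11:117969452-117969580 on the minus strand of that build, upstream of the gene, and the motif ends 146 bases before the start. The capitals mark the motif.
Socs3 promoter: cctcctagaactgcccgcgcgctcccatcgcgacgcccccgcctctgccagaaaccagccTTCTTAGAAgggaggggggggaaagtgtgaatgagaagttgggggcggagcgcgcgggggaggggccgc
A match is a description of the letters and not evidence of binding, and the missing match in the other windows says nothing about the factor.

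In wild-type retina, the receptor genes Il6st and Lifr and the response gene Serpina3n were the most abundant members. Il6st (24.1 ± 1.53 FPKM, SD, n = 3), Lifr (22.1 ± 2.48) and Serpina3n (21.9 ± 1.96), which encodes a secreted inhibitor of serine proteases, had overlapping libraries. Stat3 followed at 16.5 ± 0.221. Cebpd (5.69 ± 1.35), a transcription factor of the acute phase response, Ednrb (5.03 ± 1.52) and Edn2 (3.70 ± 0.957) overlapped in turn. Osmr (1.66 ± 0.239), the receptor subunit for oncostatin M, and Socs3 (1.46 ± 0.536) came next and overlapped. Lif was lowest, at 0.101 ± 0.0521, from 2 to 7 fragments per library.

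The order in wild-type RPE/choroid was different. Ednrb was highest at 246 ± 31.1 FPKM, above Serpina3n at 113 ± 16.5 and Il6st at 78.6 ± 1.87, with no overlap between these. Stat3 (28.4 ± 2.08), Lifr (27.4 ± 2.01) and Cebpd (25.7 ± 6.52) had overlapping libraries, and those of Osmr (18.8 ± 2.84) overlapped Cebpd. Socs3 stood at 5.42 ± 1.57, Lif at 0.391 ± 0.120 and Edn2 at 0.126 ± 0.0669, with no overlap between neighbours.

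The ligand Edn2 had its higher level in retina and its receptor Ednrb in RPE/choroid. Edn2 stood at 2.89 to 4.76 FPKM in wild-type retina and at 0.0651 to 0.198 in wild-type RPE/choroid, where it rested on 2, 2 and 4 fragments. Lif went the other way, at 0.0437 to 0.145 FPKM in wild-type retina and 0.257 to 0.488 in wild-type RPE/choroid. Edn2 passed the filter on low counts only in retina and Lif only in RPE/choroid, so both are described and not tested between the tissues. The other 8 members passed in both tissues. In edgeR's quasi-likelihood fit of all 18 libraries, with Benjamini-Hochberg adjustment over all genes tested, 7 of these 8 differed between the wild-type tissues at an adjusted p below 0.05, the threshold for a call throughout, and all 7 were lower in retina. The background was high, since 85.9% of 16222 genes tested were called in this comparison, 41.9% higher and 44.0% lower in retina. Ednrb was lower in retina by log2 -5.52 (SE 0.17, adjusted p = 7.02e-14).

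The other receptors and the response genes were also lower in retina, except Lifr. Osmr differed by log2 -3.38 (SE 0.30), Serpina3n by -2.43 (SE 0.19), Cebpd by -2.28 (SE 0.40), Socs3 by -2.06 (SE 0.27), Il6st by -1.71 (SE 0.10) and Stat3 by -0.90 (SE 0.16). Lifr differed by log2 -0.15 (SE 0.09, adjusted p = 0.154) and was not called. The RPE/choroid samples also held other tissue. Skeletal muscle markers (6 genes) summed to 2953 to 4190 FPKM in wild-type RPE/choroid and to 3.85 to 5.34 in wild-type retina. Surface epithelium markers (5 genes) summed to 1297 to 2637 against 0.248 to 1.90. Pericyte and fibroblast markers (7 genes) summed to 4039 to 4883 against 25.7 to 33.2. The part of these tissues in the members' levels was not tested. Of the 6 other endothelin genes, 5 were lower and 1 was higher in retina. Edn3, another ligand of the B receptor, was lower in retina by log2 -8.94 (SE 0.45, adjusted p = 2.11e-10), at 0.168 to 0.319 FPKM in wild-type retina and 101 to 109 in wild-type RPE/choroid. Ednra, the endothelin A receptor, and Ece1, which cleaves the ligands into active peptides, were lower in retina as well (log2 -4.60 and -1.69), and the related enzyme Ece2 was higher (2.77). Called lower in retina were also 4 of the 5 gp130 ligands tested, 3 of 4 gp130 family receptors and 9 of 11 STAT3-responsive genes, beside 44.0% of all genes. In retina itself only 3 of the ligands, 3 of the receptors and 9 of the STAT3-responsive genes passed the filter. The rest entered through RPE/choroid, so their direction was fixed in advance and is no test. Among the receptors that passed in both tissues, Il11ra1 and Il6ra differed by log2 -3.00 and -3.87.

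**Figure D1:**
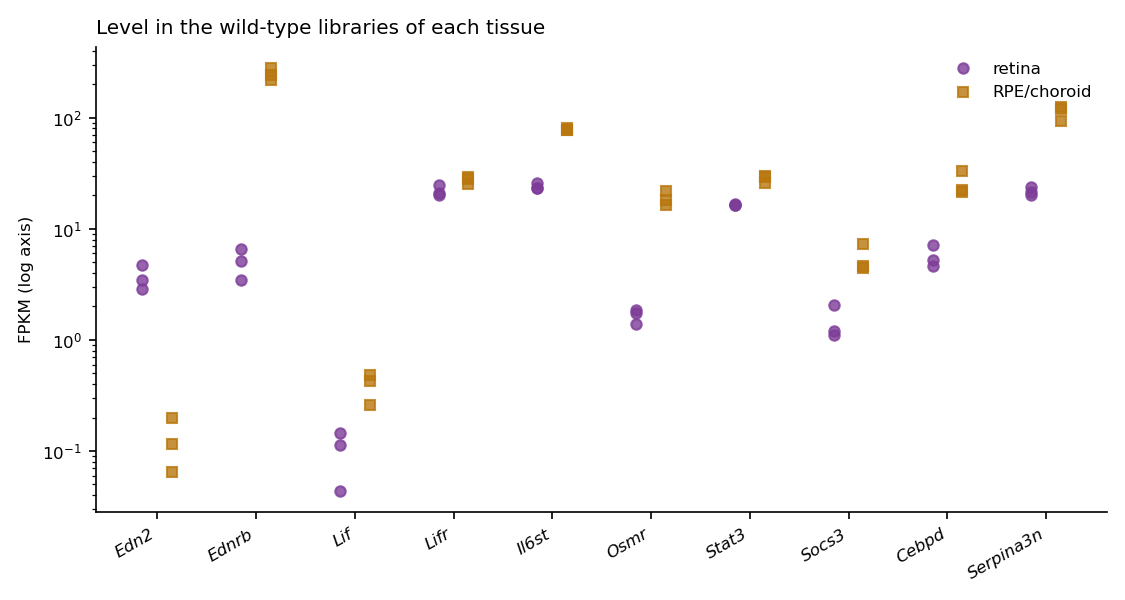
Level of each member in FPKM, on a log axis, in the 3 wild-type libraries of retina (circles) and of RPE/choroid (squares). Edn2 lies higher in retina, Lifr lies close in both tissues, and the other 8 members lie higher in RPE/choroid.

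Retinal knockout library 0 stood above every other retinal library in 7 of the 9 tested members, namely Edn2, Il6st, Osmr, Stat3, Socs3, Cebpd and Serpina3n, and also in Lif, which was not tested in retina. That library held the highest value of 8.45% of the 14699 genes tested in retina. Since the genes were listed with this library in view, these values are a description and carry no test. It ranked 5 of 9 in the receptors Ednrb and Lifr.

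Edn2, the photoreceptor-derived ligand, was at 11.99, 3.17 and 3.41 FPKM in knockout libraries 0, 1 and 2. It was at 4.76, 3.46 and 2.89 in wild-type and at 2.55, 2.01 and 0.818 in knock-in retina. Knockout 0, with 217 fragments, was 2.52 times the next highest library, the other 2 knockout libraries lay within the wild-type range, and every knock-in library lay below every wild-type library.

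Lif, the cytokine ligand, was near the limit of detection in retina. It was at 0.205, 0.198 and 0.0852 FPKM in knockout, 0.145, 0.114 and 0.0437 in wild-type and 0.135, 0.0773 and 0.0276 in knock-in retina. Between 2 and 14 fragments per library lay behind these values, the groups overlapped, and Lif did not pass the filter on low counts, so it was not tested in retina.

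Among the receptors, Osmr varied most between retinal libraries. Osmr was at 4.30, 2.06 and 2.16 FPKM in knockout, 1.74, 1.39 and 1.85 in wild-type and 1.90, 1.70 and 1.45 in knock-in retina. All 3 knockout libraries exceeded all others, and library 0 was 1.99 times the next highest.
Il6st was at 31.5, 24.3 and 24.3 FPKM in knockout retina, with 23.1 to 25.8 in wild type and 22.6 to 24.9 in knock-in. Without library 0 the knockout libraries lay inside the wild-type range. Lifr ranged from 19.5 to 24.9 FPKM over all 9 retinal libraries and Ednrb from 3.44 to 6.77, with all groups overlapping.

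Stat3, the transducer, was at 34.5, 18.3 and 19.8 FPKM in knockout, 16.5, 16.7 and 16.3 in wild-type and 17.5, 16.4 and 14.6 in knock-in retina. All knockout libraries exceeded all others, by a narrow margin in library 1. Its brake Socs3 was at 4.68, 2.33 and 1.93 FPKM in knockout, 2.08, 1.10 and 1.204 in wild-type and 2.28, 2.40 and 1.19 in knock-in retina. Knockout 2 lay below wild type 0, so these groups overlapped.

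The remaining response genes were also highest in knockout 0. Serpina3n was at 37.1, 20.5 and 26.0 FPKM in knockout, 21.6, 20.1 and 23.9 in wild-type and 15.9, 15.9 and 15.8 in knock-in retina. The knock-in libraries were almost identical and lay below all others. Cebpd was at 9.65, 3.45 and 4.51 FPKM in knockout, 4.62, 5.25 and 7.21 in wild-type and 3.87, 4.91 and 4.42 in knock-in retina. Knockout 0 held the highest Cebpd level and knockout 1 the lowest of all 9 libraries.

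**Figure D2:**
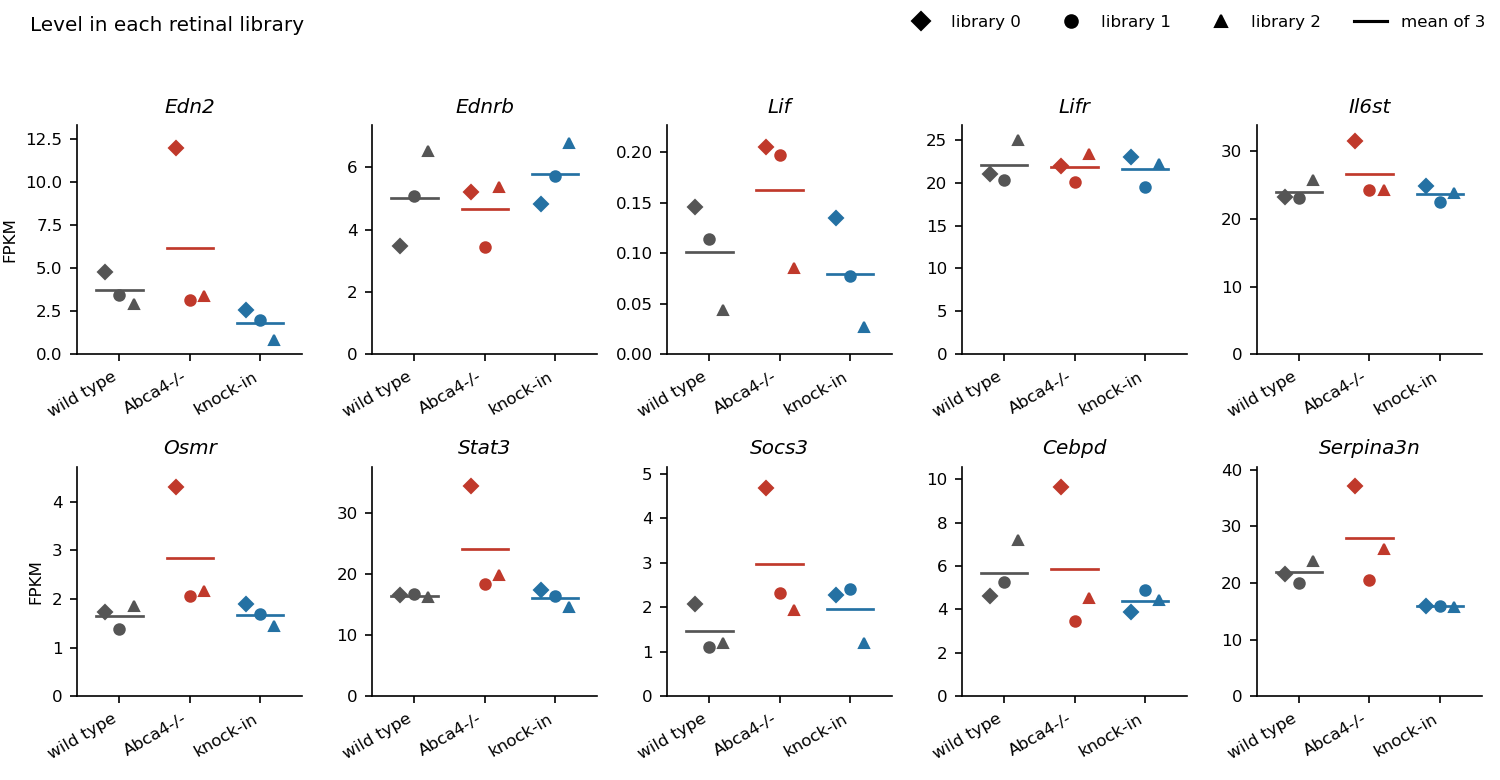
Level of each member in FPKM in every retinal library, with wild type in grey, Abca4-/- in red and knock-in in blue. Symbols give the library number of the tables and horizontal lines the mean of 3 libraries. Knockout library 0 (red diamond) is highest in 8 of the 10 panels.

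Set against the median of the other 8 retinal libraries, knockout 0 held 3.96 times the Edn2 level, 2.40 times that of Osmr and 2.33 times that of Socs3. The ratio was 2.11 for Cebpd, 2.07 for Stat3, 2.06 for Lif, 1.83 for Serpina3n and 1.31 for Il6st, and it was 1.02 for Lifr and 0.994 for Ednrb. Other measures moved with these values in the same library. The summed level of 11 microglia and macrophage markers, none of them at 0, was 48.1 FPKM in knockout 0 and 23.7 to 35.6 in the other 8. The sum of 10 RPE markers was 205 against 117 to 173. Müller glia markers, 10 genes, summed to 2590 there and to 2703 in knockout 1, with 2311 to 2493 in the rest, and 5 astrocyte markers to 140 against 118 to 136. The same Müller glia list summed to 3118 to 3511 FPKM in the RPE/choroid libraries, so its sum is not particular to Müller glia. Knockout 0 was the only male knockout library of retina, and its lens marker sum of 664 FPKM was below those of knockout 1 (7350) and knockout 2 (15439). The part of these cell types in the levels of library 0 was not tested.

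Knockout retina was compared first with wild type. edgeR's quasi-likelihood test called 0 of the 9 members tested, with 0.980% of 14699 genes called, 2 members at an unadjusted p below 0.05 (12.5% of all genes), and 0 members called by DESeq2 (2.23% of all genes) or by limma (0.197%). The median log2 fold change of the 9 was 0.33, beside -0.00317 for all genes. Library 0, in view when the genes were listed, is among the 3 knockout libraries compared. The counts of members and this median are therefore a description and no test. RPE markers moved in the same comparison, and Osmr, Socs3, Stat3 and Serpina3n had higher levels in RPE/choroid than in retina. Of 10 RPE markers, 4 were called higher in knockout retina (median log2 0.91), with sums of 163 to 205 FPKM in the 3 knockout and 117 to 131 in the 3 wild-type libraries. Of the pigment cell markers, 1 of 6 tested was called higher (median 0.82, sums of 25.6 to 32.6 against 11.05 to 21.9 FPKM). Of 10 Müller glia markers, 1 was called higher (median 0.20), and of 11 microglia and macrophage markers 0 were called (median 0.30). In knock-in retina, RPE markers summed to 154 to 173 FPKM, with 0 of 10 called against wild type (median log2 0.65). In that comparison Socs3 was at log2 0.43, Osmr at 0.01, Stat3 at -0.02 and Serpina3n at -0.47. The part of these cells in the members' values was not tested. In knockout against wild type, Socs3 had the smallest p, with log2 1.02 (SE 0.31, 95% interval 0.34 to 1.70, edgeR adjusted p = 0.183). Stat3 was at log2 0.55 (SE 0.22, interval 0.02 to 1.07, adjusted p = 0.383), Osmr at 0.81 (SE 0.37, adjusted p = 0.431) and Edn2 at 0.73 (SE 0.56, interval -0.60 to 2.05, adjusted p = 0.658).

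In 2 members, Osmr and Stat3, every knockout library exceeded every wild-type library, as in 6.66% of all genes. Leaving out library 0 lowered Stat3 to log2 0.24 (adjusted p = 0.182), Osmr to 0.29 (0.490), Socs3 to 0.64 (0.269) and Serpina3n from 0.33 to 0.10 (0.846). With sex as a term the values were 1.15 for Socs3 (edgeR adjusted p = 0.0954), 0.96 for Osmr (0.242), 0.93 for Edn2 (0.429) and 0.62 for Stat3 (0.301). All 15 lens markers had a log2 above 0 in this comparison (median 4.29), and 0 were called. With lens marker content as a term, Socs3 was at 1.24 (edgeR adjusted p = 0.316), Edn2 at 1.12 (0.745) and Osmr at 1.08 (0.573). Stat3 was then at 0.81 (0.406), Cebpd at 0.77 (0.384) and Serpina3n at 0.62 (0.445). Without library 0, Edn2 turned to -0.13 (adjusted p = 0.901), Cebpd from 0.06 to -0.50 (0.352) and Il6st from 0.15 to -0.01 (0.958). In the authors' deposited table, the q-value of knockout against wild type was 0.00293 for Osmr, Stat3 and Socs3, 0.0244 for Edn2 and 0.0896 for Serpina3n.

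Knock-in retina was compared with wild type in the same fit and shares its 3 wild-type libraries with the comparison above. None of the 9 tested members was called by edgeR, beside 0.265% of all genes, 0 had an unadjusted p below 0.05 (8.50% of all genes), and DESeq2 (0.783% of all genes) and limma (0.0612%) called 0. Every knock-in library lay below every wild-type library for Edn2 and Serpina3n, which held for 3.61% of all genes. By sex-linked genes every knock-in library was female while wild type 0 and 1 were male, so genotype and sex are partly mixed here. Serpina3n was at log2 -0.47 (SE 0.22, interval -0.98 to 0.04, adjusted p = 0.612) and Edn2 at -1.03 (SE 0.61, interval -2.47 to 0.41, adjusted p = 0.731). The intervals of Stat3 (-0.55 to 0.51) and Osmr (-0.88 to 0.91) left room for a change in either direction. The authors' deposited table gave q = 0.00547 for Serpina3n and 0.00791 for Edn2.

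Knock-in and knockout retina were also compared directly, again with shared libraries. edgeR called 0 of 9 members beside 1.26% of all genes, with 3 members at an unadjusted p below 0.05 (11.7% of all genes), whereas DESeq2 called 2 (2.21% of all genes) and limma 0 (0.136%). In Edn2, Osmr, Stat3 and Serpina3n every knock-in library lay below every knockout library, as in 5.08% of all genes. Library 0, in view when the genes were listed, is among these knockout libraries, so these member counts are a description and no test. Edn2 was at log2 -1.76 (SE 0.58, interval -3.12 to -0.40, edgeR adjusted p = 0.281) and was called by DESeq2 (adjusted p = 0.00519) with knockout 0, though not without it (log2 -0.91, adjusted p = 0.305). Serpina3n was at log2 -0.80 (SE 0.21, edgeR adjusted p = 0.173) and was called by DESeq2 (0.0204, and 0.00683 without knockout 0) and by edgeR without knockout 1 (log2 -0.997, adjusted p = 0.00722). Stat3 was at -0.57 (SE 0.22, adjusted p = 0.380) and Osmr at -0.80 (SE 0.36, adjusted p = 0.465). In edgeR without knockout 0 these were -0.90 for Edn2 (0.252), -0.57 for Serpina3n (0.155), -0.26 for Stat3 (0.165) and -0.28 for Osmr (0.592).

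**Figure D3:**
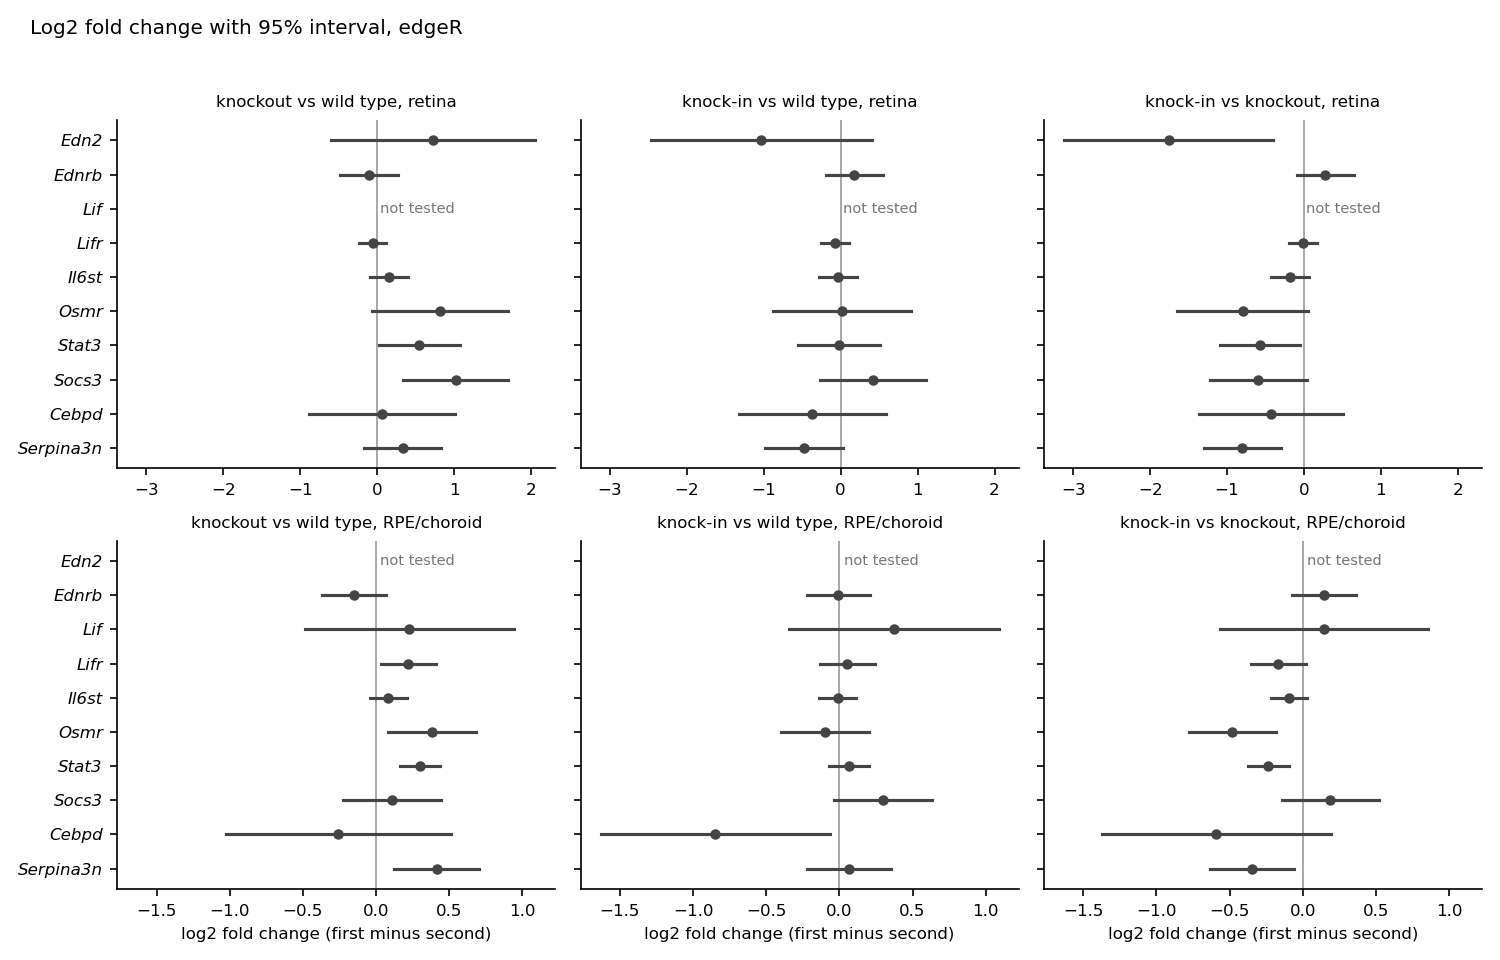
Log2 fold change of each member in the 3 genotype comparisons of retina (top) and RPE/choroid (bottom), from edgeR's quasi-likelihood fit. Points are estimates and lines 95% intervals, and a member that did not pass the filter is marked as not tested. None of the members reached an adjusted p below 0.05, and the horizontal scales differ between the tissues.

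In RPE/choroid, knockout library 2 rather than library 0 was highest in 5 of the 9 tested members, namely Lifr, Il6st, Osmr, Stat3 and Serpina3n, and also in Edn2, which was not tested there. That library held the highest value of 16.1% of the 15454 genes tested in RPE/choroid. Stat3 was at 35.0, 34.4 and 37.5 FPKM in knockout libraries 0, 1 and 2. Wild-type RPE/choroid held 30.1, 29.0 and 26.1, and knock-in RPE/choroid 32.0, 30.1 and 29.5. The 3 knockout libraries lay above all 6 others.

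Serpina3n, the protease inhibitor, was at 135, 141 and 179 FPKM in knockout, 120, 124 and 93.7 in wild-type and 121, 125 and 118 in knock-in RPE/choroid. All knockout libraries exceeded all others. Osmr was at 21.9, 17.5 and 35.1 FPKM in knockout, 16.3, 18.2 and 21.9 in wild-type and 13.5, 15.8 and 24.3 in knock-in RPE/choroid. The Osmr groups overlapped.

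Edn2 was nearly undetected in RPE/choroid. It rested on 9, 9 and 23 fragments in knockout (0.459, 0.464 and 0.850 FPKM), 2, 2 and 4 in wild type (0.114, 0.0651 and 0.198) and 12, 4 and 0 in knock-in (0.642, 0.284 and 0). A count of 0 allows up to 3 fragments. Every knockout library exceeded every wild-type library, and Edn2 did not pass the filter there, so it was not tested within this tissue. Lif, at 0.257 to 0.810 FPKM over the 9 libraries, had overlapping groups.

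Cebpd went another way. Its level was 9.10, 14.8 and 17.9 FPKM in knock-in, 33.2, 21.6 and 22.3 in wild-type and 15.9, 21.1 and 27.6 in knockout RPE/choroid. All knock-in libraries lay below all wild-type libraries. Socs3 was at 9.15, 6.50 and 4.87 FPKM in knock-in, 7.23, 4.43 and 4.59 in wild-type and 6.12, 6.24 and 5.35 in knockout, and its groups overlapped. The receptors Ednrb (185 to 309 FPKM), Lifr (24.8 to 37.0) and Il6st (72.5 to 90.5) had overlapping groups, with the highest library at 1.67, 1.49 and 1.25 times the lowest.

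**Figure D4:**
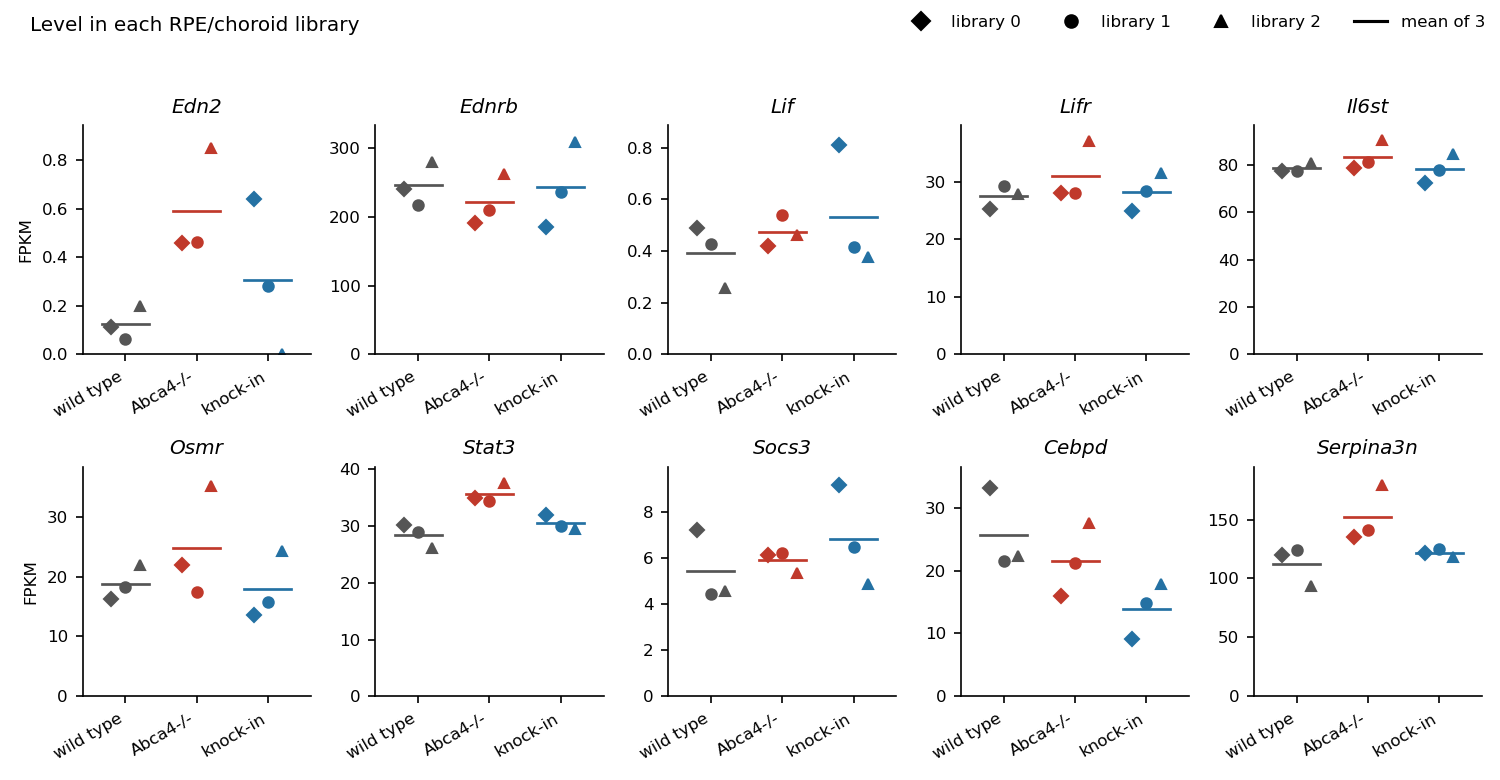
Level of each member in FPKM in every RPE/choroid library, drawn as for retina. The knockout libraries lie above the wild-type libraries for Edn2, Stat3 and Serpina3n, and the knock-in libraries lie below wild type for Cebpd.

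For knockout against wild-type RPE/choroid, edgeR called 0 of 9 members beside 0.472% of 15454 genes. Here 4 members had an unadjusted p below 0.05 (15.5% of all genes), DESeq2 called 2 members (3.71% of all genes) and limma 0 (0.110%). In 2 of the 9 tested members, Stat3 and Serpina3n, the knockout libraries all exceeded the wild-type libraries, as in 5.56% of all genes tested. The median log2 fold change of the 9 was 0.22, beside -0.01 for all genes. Stat3 came nearest to the threshold, with log2 0.30 (SE 0.06, interval 0.17 to 0.44, edgeR adjusted p = 0.0776). It was called by DESeq2 (adjusted p = 0.00157) and by edgeR with rod marker content as a term (log2 0.30, adjusted p = 0.0285). Wild-type library 2, the one with the high rod sum, held the lowest Stat3 and Serpina3n levels, and without it Stat3 stood at log2 0.26 (edgeR adjusted p = 0.0517) and Serpina3n at 0.31 (0.167). RPE markers summed to 8894 to 9368 FPKM in wild-type and 7028 to 7683 in knockout RPE/choroid, and microglia and macrophage markers to 238 to 329 and 219 to 283, and their part in these values was not tested.

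Serpina3n was at log2 0.41 (SE 0.13, interval 0.12 to 0.70, edgeR adjusted p = 0.178) and was called by DESeq2 (0.0418). Osmr was at log2 0.38 (SE 0.13, adjusted p = 0.219) and was called without knockout 1 (log2 0.54, edgeR adjusted p = 0.0215). Lifr was at 0.22 (SE 0.08, adjusted p = 0.253). In the authors' deposited table, q was 0.0277 for Serpina3n, 0.0428 for Osmr and 0.198 for Stat3.

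Knock-in RPE/choroid shared the wild-type libraries of that comparison, and edgeR called 0 of 9 members beside 0.0647% of all genes. DESeq2 (0.286% of all genes) and limma (0.0324%) called 0 as well, and 1 member, Cebpd, had an unadjusted p below 0.05 (5.53% of all genes). Cebpd was at log2 -0.85 (SE 0.34, interval -1.63 to -0.06, edgeR adjusted p = 0.865), and its knock-in libraries all lay below wild type, as in 1.90% of all genes. The authors' deposited table gave q = 0.0199 for it. Stat3 was at 0.07 (interval -0.07 to 0.21) and Serpina3n at 0.07 (interval -0.22 to 0.36).

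Against knockout, knock-in RPE/choroid had 0 members called by edgeR beside 0.453% of all genes, 3 at an unadjusted p below 0.05 (12.2% of all genes), 2 called by DESeq2 (2.03% of all genes) and 0 by limma (0.168%). Stat3 was at log2 -0.23 (SE 0.06, edgeR adjusted p = 0.177) and Serpina3n at -0.35 (SE 0.13, adjusted p = 0.331), and the knock-in libraries of both lay below all knockout libraries, as in 4.68% of all genes. Osmr was at -0.48 (SE 0.13, edgeR adjusted p = 0.209) with overlapping groups. DESeq2 called Osmr (adjusted p = 0.0290) and Stat3 (0.0379), and edgeR called Osmr without knockout 1 (log2 -0.64, adjusted p = 0.00680). The authors' deposited q was 0.00910 for Osmr and 0.708 for Stat3.

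The difference of the genotype effects between the tissues was tested as an interaction in the fit of all 18 libraries, and is given for the 8 members that passed the filter in each tissue. For the knockout effect edgeR called 0 of 8 members beside 0.136% of all genes, with 2 at an unadjusted p below 0.05 (12.3% of all genes), and DESeq2 called 0 (1.67% of all genes). Retinal knockout library 0 enters this difference, so these counts of members are a description. Socs3 (log2 -0.90 in RPE/choroid minus retina, SE 0.36, edgeR adjusted p = 0.348) and Lifr (0.29, SE 0.13, adjusted p = 0.386) had the smallest p. For the knock-in effect edgeR called 0 of 8 members beside 0.0555% of all genes, 0 had an unadjusted p below 0.05 (5.98% of all genes) and DESeq2 called 0 (0.245% of all genes). The largest estimate among the 8 was that of Serpina3n (0.53, SE 0.26, edgeR adjusted p = 0.815).

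Other genes of the pathway were read from lists of endothelin, gp130, JAK and STAT, acute phase and retinal stress genes. Of the 6 genes of the endothelin list all were tested and 0 were called in any genotype comparison of either tissue. Edn3 stood at 0.248, 1.23 and 0.790 FPKM in the knockout libraries of retina, with 0.168, 0.173 and 0.319 in the wild-type ones (log2 1.80, SE 0.63, edgeR adjusted p = 0.280). Its low retinal level was thus highest in knockout 1 and not in knockout 0. Ece1 was at log2 0.32 in knockout RPE/choroid against wild type (SE 0.07, edgeR adjusted p = 0.1001).

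The gp130 ligands were scarce in retina, where 3 of 10 passed the filter. Il6, the founding cytokine of the family, was listed at 0 in all 9 retinal libraries, and Osm, the ligand of Osmr, was listed at 0 in 7. Cntf, ciliary neurotrophic factor, stood at 5.34, 6.28 and 7.63 FPKM in the knockout libraries of retina and at 4.24 to 4.56 in the wild-type ones (log2 0.49, SE 0.16, edgeR adjusted p = 0.214), with no overlap. None of the tested gp130 ligands (3 in retina, 5 in RPE/choroid) or receptors (3 and 4) was called in a genotype comparison.

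Of the JAK and STAT genes, 14 of 15 were tested in retina and 15 in RPE/choroid, and 1 was called. Pias3, an inhibitor of STAT3, was higher in knock-in than in knockout retina by log2 0.42 (SE 0.07, edgeR adjusted p = 0.00873), at 28.2 to 36.4 against 23.8 to 25.0 FPKM. Wild type spanned 22.9 to 32.7, and the call was lost with limma (0.457) and without knockout 1 (0.0662). Of the acute phase genes, 9 of 12 were tested in retina and 11 in RPE/choroid, and 0 were called. Cp, ceruloplasmin, had log2 0.36 in knockout RPE/choroid against wild type (SE 0.07, edgeR adjusted p = 0.0783) and Lcn2, lipocalin 2, -0.95 in knock-in against knockout retina (SE 0.24, adjusted p = 0.0871).

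Of the stress list, Fgf2 rose in knockout retina, a growth factor known to prolong the survival of photoreceptors. It was at 14.2, 9.89 and 8.42 FPKM in knockout, 2.64, 3.22 and 2.14 in wild-type and 2.04, 2.69 and 2.90 in knock-in retina. Every knockout library exceeded all others, library 0 most. The rise over wild type was log2 2.06 (SE 0.25, edgeR adjusted p = 8.79e-04) and stood at 1.86 without knockout 0 (adjusted p = 0.00199). Knock-in was lower than knockout by log2 -2.09 (adjusted p = 4.55e-04). Of the 10 genes of that list tested in retina, 1 was called in each of these comparisons, and 0 of 10 in knock-in against wild type.

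Gfap, the intermediate filament of reactive glia, was at 32.1, 17.99 and 14.6 FPKM in knockout, 26.5, 22.4 and 23.5 in wild-type and 18.9, 17.95 and 14.99 in knock-in retina. It was highest in knockout 0, and the other knockout libraries lay below wild type. In RPE/choroid it was at 12.6, 10.9 and 8.93 FPKM in knockout, 11.8, 19.2 and 0.572 in knock-in and 0.314, 0.971 and 2.21 in wild type. The knockout libraries all exceeded wild type, as in 5.56% of all genes tested in RPE/choroid, and the authors' deposited q was 0.00347. For knock-in against wild type the estimate was log2 2.99 (SE 1.13, edgeR adjusted p = 0.861), with knock-in 2 within the wild-type range, while the authors' deposited q was 0.00347. None of the 12 stress genes tested in RPE/choroid was called by edgeR.

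Likeness between genes was described by Pearson's r of log2(FPKM + 0.1) over the 9 libraries of a tissue, among genes with a mean of at least 1 FPKM. In retina the gene most like Osmr was Stat3 (r = 0.965), followed by A2m (0.932), the acute phase protease inhibitor, and Trf (0.920), transferrin. Without knockout 0, r of Osmr and Stat3 was 0.798. Stat3 was next most like Irf9 (0.959) and Rnf144b (0.957), which dropped to 0.634 and 0.668 without that library. Edn2 was most like Lad1 (0.959), Myeov2 (0.958) and Ankrd33b (0.912), and Serpina3n most like Gbp1 (0.972), Antxr2 (0.934) and Lrrc2 (0.924).

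Il6st was most like Osmr (0.912, and 0.503 without knockout 0), and Socs3 was most like Slc16a8 (0.954), a monocarboxylate transporter of RPE. The members' own pairs depended on library 0 to unequal degrees. Edn2 and Serpina3n had r = 0.848 with it and 0.661 without it, Edn2 and Stat3 0.830 and 0.630, and Stat3 and Cebpd 0.645 and -0.345. Edn2 and its receptor Ednrb had r = -0.416 with it and -0.661 without it. These points share the libraries, their depth and their tissue makeup.

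In RPE/choroid the cytokine receptors were like each other, with r = 0.929 for Il6st and Osmr, 0.922 for Lifr and Il6st and 0.903 for Lifr and Osmr. Stat3 and Serpina3n had r = 0.923 there. Cebpd was most like Per1 (0.935), a clock gene, then Wdr72 (0.920) and Wee1 (0.914), a cell cycle kinase. Serpina3n was most like Rin2 (0.986), Slc43a1 (0.962) and Mast4 (0.962), and Stat3 like Cd300lg (0.958), Mast4 (0.956) and Neat1 (0.953).

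Transcript estimates of the authors split 4 members into 2 or 3 forms. For Lifr, the 2844-base transcript, far shorter than the 9663-base form, made up 12.5% to 21.9% of the gene's FPKM in retina and 12.7% to 28.0% in RPE/choroid. For Stat3, the 4487-base form held most of the level, with a median share of 72.0% in retina and 72.5% in RPE/choroid, and a form 3 bases shorter held 16.1% and 17.5%. The form that is 50 bases shorter held 3.87% to 6.11% in knock-in, 8.26% to 12.4% in knockout and 6.86% to 12.1% in wild-type retina, so the knock-in libraries lay below all others. Its share was 10.4% to 16.6% in knock-in RPE/choroid, overlapping the other genotypes. Shares of the 2 Ednrb forms, which differ by 111 bases, ran from 7.96% to 91.3% for the 3878-base form in retina. No test was made on transcripts, since the reads behind each form are assigned by estimation.

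The positions of the members are those of the deposited tables, in build mm9. Edn2 lies at chr4:119834028-119839965, Ednrb at chr14:104213841-104243390, Lif at chr11:4157570-4172517, Lifr at chr15:7079571-7147489 and Il6st at chr13:113254277-113297068. Osmr lies at chr15:6763576-6824313 on the same chromosome as Lifr, Stat3 at chr11:100748123-100800825, Socs3 at chr11:117827400-117830680 and Serpina3n at chr12:105644917-105652539. The entry of Cebpd spans chr16:15887378-16146926, far more than its single listed transcript, so its fragments could include those of another locus.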

How the data were processed

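Stranded total RNA libraries after ribosomal RNA removal were read as paired ends, per the labels' protocols. The submitters' processing notes name TopHat, Bowtie2, Cufflinks and mm9, without versions or settings. The gene tables deposited hold expected counts, unscaled fragments per gene and library (98.5% and 98.4% whole in retina and RPE/choroid, rounded here), and FPKM, per the file headers. A comparison table from the authors adds a p-value and q-value for each gene, and transcript tables add a length, per the file headers. Of the gene estimates, 10 in retina and 3 in RPE/choroid were marked failed, none among the genes described.

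edgeR 4.0.16 under R 4.3.3 (filterByExpr, TMM scaling, robust quasi-likelihood) tested the counts, with the 9 libraries of a tissue in 1 fit and all 18 for contrasts between tissues. Benjamini-Hochberg adjustment covered all genes tested, and the SE is the absolute log2 fold change over the root of F. Alternatives were DESeq2 1.42.0, limma 3.58.1 on log2(FPKM + 1), RLE scaling, no filter, the compared libraries only, leaving out each library, a replicate block, and sex, lens or rod terms. DESeq2 without knockout library 0 was added after the data were seen. The fits were also run on simulated counts with a common spread for all genes and no outlying library. That run says nothing about the values of knockout library 0. Named list genes are up to 4 called per list and comparison or, where none was called, up to 2 with the smallest p. Levels of Gfap, Il6 and Osm were added after their values were seen. The members and lists were chosen with earlier results of these data known.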

Additional observations from a re-analysis of the deposited data

Results flagged for a closer look

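The knockout effect on Fgf2 differed between the tissues by a test of the difference itself. In RPE/choroid minus retina it was log2 -2.08 (SE 0.34, edgeR adjusted p = 0.0208 for the interaction). In retina all 3 knockout libraries exceeded all 3 wild-type libraries, at 8.42 to 14.2 against 2.14 to 3.22 FPKM. In RPE/choroid the knockout libraries, at 6.11 to 8.03 FPKM, overlapped wild type at 5.70 to 8.62. The adjusted p rose to between 0.0551 and 0.0733 when wild-type retina 0, 1 or 2 or wild-type RPE/choroid 1 was left out, with log2 values from -2.02 to -2.16. None of the 8 members tested in both tissues met this criterion. Groups of 3 libraries are too small for the outlier criterion, so the values of knockout 0 are described and not tested as outliers.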

How the results depend on the processing

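The count of members called moved under DESeq2, with the rod content term and when 1 library was left out. DESeq2 called 2 members in knock-in against knockout retina, 2 in knockout against wild-type RPE/choroid and 2 in knock-in against knockout RPE/choroid, each 0 with edgeR. DESeq2 without knockout 0, chosen after the data were seen, called 1 in knock-in against knockout retina (Serpina3n) and 0 in knockout against wild-type retina. The rod content term gave 1 in knockout against wild-type RPE/choroid. Leaving out 1 library gave 0 to 1 in each of these 3 comparisons, with knockout 1 the library whose removal gave 1. Counts of 0 in retinal knockout and knock-in against wild type and in knock-in against wild-type RPE/choroid were the same under every alternative run. So were the 0 counts of both differences between tissues. The fit of all 18 libraries called 9 of 10 members between wild-type tissues, and 10 without wild-type RPE/choroid 2, when Lifr was called. Edn2 and Lif are in this count, although each passed the filter only in the tissue where it was high. Their calls are therefore not a test between the tissues. Over 1341 results for single genes under alternatives, 1254 kept their sign and side of the threshold, 21 were newly called, 6 lost their call and 60 changed sign, and 0 of the sign changes had an adjusted p under 0.05. The causes were not tested.

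Sign changes under other settings were as follows, as log2 values. In knockout against wild-type retina, Ednrb was 0.25 with the lens term and Cebpd -0.048 with limma. In knock-in against wild-type retina, Il6st was 0.071 with the sex term and 0.061 with the lens term, Stat3 0.20 and 0.17, and Cebpd 0.13 with the lens term. In knock-in against knockout retina, Lifr was 0.015 with the sex term and 0.0043 with the lens term. With DESeq2 without knockout 0, Edn2 was -0.12, Il6st -0.014 and Cebpd -0.50 in knockout against wild-type retina, and Lifr 0.050 and Cebpd 0.13 in knock-in against knockout retina. Il6st was 0.012 with the sex term in knock-in against wild-type RPE/choroid, and -0.010 with no filter for the difference of the knock-in effect between tissues.

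Leaving out each library in turn gave ranges that cross 0. In knockout against wild-type retina these were -0.13 to 1.07 for Edn2, -0.27 to 0.055 for Ednrb, -0.014 to 0.23 for Il6st and -0.50 to 0.36 for Cebpd. In knock-in against wild-type retina they were -0.086 to 0.013 for Il6st, -0.13 to 0.18 for Osmr and -0.064 to 0.016 for Stat3. In knock-in against knockout retina they were -0.13 to 0.046 for Lifr and -0.73 to 0.14 for Cebpd. In knock-in against wild-type RPE/choroid they were -0.069 to 0.098 for Ednrb, -0.024 to 0.12 for Lifr, -0.046 to 0.014 for Il6st, -0.038 to 0.15 for Serpina3n and -0.38 to 0.021 for Abca4. In knock-in against knockout RPE/choroid, Lif ran from -0.23 to 0.31. For the difference of the knockout effect they were -0.62 to 0.27 for Cebpd, -0.19 to 0.13 for Ednrb, -0.18 to 0.11 for Il6st, -0.67 to 0.10 for Osmr, -0.097 to 0.33 for Serpina3n and -0.41 to 0.081 for Stat3. For the difference of the knock-in effect they were -0.046 to 0.066 for Il6st, -0.29 to 0.027 for Osmr and -0.38 to 0.076 for Socs3.

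Counts over all genes moved more. They ran from 29 (limma) to 460 (DESeq2 without knockout 0, and 327 with it) around 144 in knockout against wild-type retina. With limma and DESeq2 at the ends, they ran from 9 to 115 around 39 in knock-in against wild type and from 20 to 324 around 185 in knock-in against knockout. In RPE/choroid they ran from 17 (limma) to 538 (DESeq2) around 73, from 2 (sex term) to 44 (DESeq2) around 10 and from 26 (limma) to 313 (DESeq2) around 70. For the knockout difference between tissues they ran from 9 (without wild-type retina 0) to 337 (without wild-type RPE/choroid 2) around 22, and for the knock-in difference from 2 (without knock-in retina 2) to 37 (DESeq2) around 9. With the replicate number as a block, 0 members were called in the 6 genotype comparisons and both differences. Between wild-type tissues 9 of 10 were called, again counting Edn2 and Lif, which each passed the filter in only 1 tissue. Libraries of the same number had r of -0.47 to 0.24 between genotypes, over 0.1 in 6 of 18 pairs, so no steady pairing by number was seen. This check cannot exclude a shared litter or batch, and it did not compare retina with RPE/choroid. The block called 271 genes in knock-in against knockout retina, 28, 4 and 36 in the RPE/choroid comparisons in the same order, 194 and 45 in the other retinal comparisons, and 19 and 11 for the differences between tissues. Of the 60 genes most like a member, 53 stayed with a pseudocount of 1. Depth limits Lif in retina (2 to 14 fragments) and Edn2 in RPE/choroid (0 to 23).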
